A study of Mus musculus with 20 samples.

Results

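The cytosolic ribosomal protein genes are the genes of the proteins that, with the ribosomal RNAs, make up the ribosome outside the mitochondria. They were chosen by name, as every row of the count table named *Rpl*, *Rps*, *Rplp0*, *Rplp1*, *Rplp2* or *Rpsa* with a plain number and at most a final a or x. This gave 76 of 25655 genes, 46 of the large subunit and 30 of the small subunit. *Fau*, *Rps3a1*, pseudogenes and the mitochondrial ribosomal proteins were outside the rule. RNA was taken from the utricle, the organ of the inner ear that carries the otoconial layer and senses linear acceleration, in female C57BL/6J mice that were operated on at 8 weeks of age and killed 4 weeks later. Of the 4 groups, the sham + v group kept its ovaries and the OVX + v group was ovariectomized, and both received a vehicle pellet. The OVX + E2 group was ovariectomized and received a pellet of 50 µg of estradiol for 60 days, and the OVX + RAL group was ovariectomized and received a pellet of 2.4 mg of raloxifene for 60 days. Each group had 5 libraries, each made from 1 ng of total RNA and sequenced at the 3′ ends of mRNA, and the labels do not say whether 1 library is 1 animal, so that p-values measure the spread between these libraries. In such bulk libraries a smaller number of cells of a type and less RNA in each cell cannot be told apart.

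Ribosomal proteins are made in nearly equal numbers, because a ribosome holds a single copy of almost every one of them. Their mRNAs are among the most abundant of any cell, and most of them begin with a run of pyrimidines behind a cytosine, the terminal oligopyrimidine (TOP) tract, through which the kinase mTOR and the protein LARP1 set how fast these mRNAs are translated. The genes have also left many processed copies in the mouse genome, most of them without function. Both features are read in the sequences shown first, since the tract is what the mRNAs share and the copies bear on where the reads of these genes are counted.

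The RefSeq promoter table (GRCm38.p6) held 56 of the 76 genes by symbol. A cytosine followed by 4 pyrimidines stood exactly at an annotated start in 13 of them (23.2%) and in 3.01% of all 27025 symbols of the table. Within 5 bases before to 10 bases after the start the same letters were found in 48.2% of the matched genes and in 21.2% of all symbols. A match is a description of the letters at an annotated start, and an annotated start can lie some bases from the true one. The 4 genes with the highest levels among those 13 are shown as 40 bases before the start and 10 from it, with the tract in capitals, for *Rps21* at chr2:180257339-180257388 (+), *Rps27* at chr3:90213639-90213688 (-), *Rpl38* at chr11:114668540-114668589 (+) and *Rplp2* at chr7:141447611-141447660 (+), all on GRCm38.p6.
Rps21: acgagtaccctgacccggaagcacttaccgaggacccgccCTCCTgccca
Rps27: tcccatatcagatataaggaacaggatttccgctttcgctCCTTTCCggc
Rpl38: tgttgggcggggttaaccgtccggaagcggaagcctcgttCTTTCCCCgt
Rplp2: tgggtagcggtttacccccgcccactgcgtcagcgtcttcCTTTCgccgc

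Copies were searched on GRCm39, the build of the count table, with every stretch of 63 nucleotides, the greatest length of a read after trimming, in the last 300 coding nucleotides. Of the 76 genes, 75 (98.7%) had at least 1 such stretch exactly at another place of the genome, and 37 (48.7%) had every stretch there. The same held for 11.5% and 1.46% of the 15580 other coding genes with a count. Reads of 20 to 63 nucleotides were kept, and shorter ones can match more places than these counts give. The part of the mRNA after the stop codon, in which reads from the 3′ end can also lie, was not searched. In the transcripts used it was 5759 nucleotides long for *Rpl37*, 2649 for *Rpl29* and 46 for *Rps2*. The counts of other places therefore need not hold for the bases that were read. The number of other places had a median of 6.5 and reached 53 for *Rps2* and *Rpl7a*. Whole coding sequences were compared for 2 pairs of genes of the table. *Rpl10* and *Rpl10-ps3* did not differ over 645 coding nucleotides or the 68 nucleotides after the stop codon, and *Rps27* and *Rps27rt* did not differ over 255 coding nucleotides or the 58 after it. The last 63 coding nucleotides are shown with the stop codon in capitals, since they are shared letter by letter within each pair. Those of *Rpl10* lie at chrX:73316611-73316673 (+) and those of *Rpl10-ps3* at chr9:50255597-50255659 (-). Those of *Rps27rt* lie at chr9:114811521-114811583 (-), and the last 31 of those of *Rps27* at chr3:90120032-90120062 (-), before which an intron lies.
Rpl10 and Rpl10-ps3: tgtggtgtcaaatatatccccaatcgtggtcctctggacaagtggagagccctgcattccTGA
Rps27 and Rps27rt: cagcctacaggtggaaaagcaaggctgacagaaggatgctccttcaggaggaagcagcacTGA

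The total counts were between 1123053 and 2081747 per library, with 7427 to 10694 genes counted. The totals of OVX + E2 (1123053 to 1507667) lay wholly below those of OVX + RAL (1702313 to 2081747). The OVX + E2 libraries had 7427 to 9680 genes counted, which did not overlap with the 10004 to 10694 of OVX + v or the 10103 to 10290 of OVX + RAL. They did overlap with the 8651 to 10625 of sham + v. The part of the totals and of the genes counted in the comparisons was not tested. The markers of utricle hair cells (7 of 7 with counts) summed to 692 to 1459 CPM (the count of a gene scaled to a common library total), and those of supporting cells and the otoconial membrane (7 of 7) to 1442 to 4649 CPM. Markers of Schwann cells (3 of 3, 1340 to 3535 CPM) and blood (4 of 4, 363 to 3837 CPM) were also present. Markers of skeletal muscle reached 270 CPM, and those of airway secretory cells 1738 CPM with *Scgb3a1* at 0.

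The ribosomal protein genes as a whole took shares of the library that overlapped between the 4 groups. Their share of all counts was 7.61 ± 0.54% (SD, n = 5) for sham + v, 7.52 ± 1.11% for OVX + v, 7.57 ± 0.77% for OVX + E2 and 7.68 ± 0.37% for OVX + RAL (SD, n = 5 each). The single libraries of the sham + v group had 7.29%, 8.06%, 6.98%, 8.27% and 7.45%, and those of the OVX + v group 6.24%, 7.51%, 6.96%, 9.23% and 7.65%. The lowest and the highest share of all 20 libraries were therefore both found for OVX + v, and the other groups lay within its range. The OVX + E2 libraries had 7.06%, 7.22%, 7.06%, 8.88% and 7.63%, and the OVX + RAL libraries 7.67%, 7.28%, 7.35%, 8.04% and 8.06%. The large subunit took 4.18 ± 0.38% and the small subunit 3.41 ± 0.35% of a library (SD, n = 20). The ratio of both was between 1.14 and 1.53 and was highest in replicate 16 of the OVX + RAL group, in which *Rpl13a* stood at 3296 CPM.

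**Figure D1:**
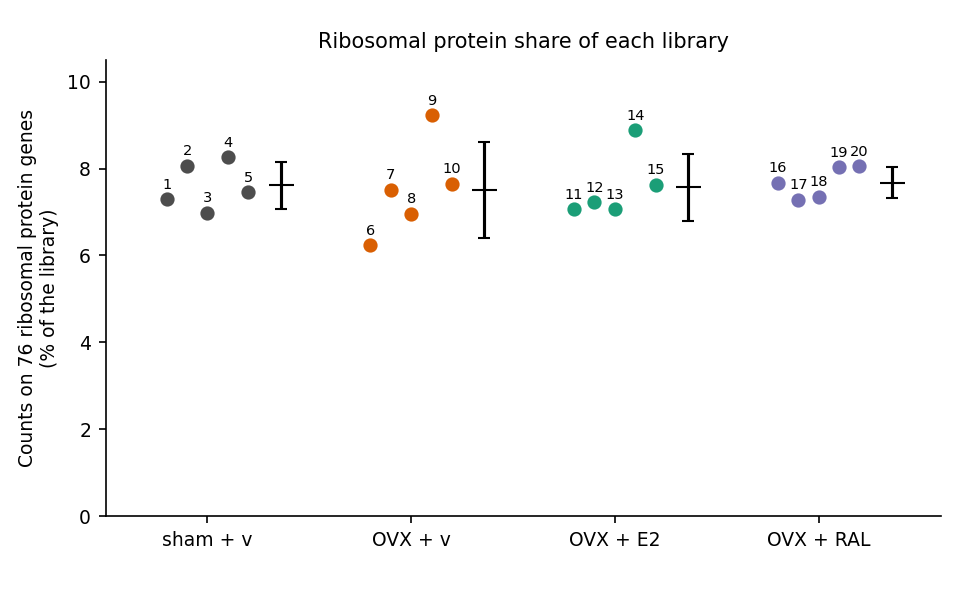
The share of the counts of each library that fell on the 76 ribosomal protein genes, in percent, with 1 point for each library, its replicate number above it, and the mean with its SD (n = 5) as a bar beside each group. The shares run from 6.24% to 9.23%, both for OVX + v, and the 4 group means lie between 7.52% and 7.68%.

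The libraries with an extreme share were picked by the sum of these same genes, so that many genes at their extreme there are in part given by that choice. The share of all genes at their extreme in these libraries was not determined, and the counts are a description only. In replicate 9 of the OVX + v group, which had the highest share, 52 of the 76 genes had their highest level of the group and 0 their lowest. In replicate 6, which had the lowest share, 40 genes had their lowest level of the group. In the OVX + E2 group 37 genes were highest in replicate 14. No library of the sham + v or OVX + RAL group held the highest level of more than 27 genes.

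The level of single genes ran over a wide range, although the proteins are needed in like numbers. The kit reads 1 end of each mRNA, so that CPM were compared between genes without division by length. Means over the 20 libraries were above 1000 CPM for 26 genes, between 250 and 1000 CPM for 47 and below 250 CPM for 3, with a median of 773 CPM, and 29 of the 100 genes with the most counts of the table were ribosomal protein genes. Apart from *Rpl10*, the highest mean was 28.2 times the lowest. The median was 689 CPM over the large subunit and 830 CPM over the small subunit. The 4 genes at the top, *Rps29*, *Rps21*, *Rplp1* and *Rpl41*, held 20.03% of all ribosomal protein counts, and they were the top 4 in 19 of 20 libraries.

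*Rps29*, a zinc-binding protein of the small subunit, was first, with 4309 ± 732 CPM for sham + v, 3992 ± 505 CPM for OVX + v, 3914 ± 893 CPM for OVX + E2 and 4089 ± 683 CPM for OVX + RAL (SD, n = 5 each). *Rps21* followed with 3927 CPM over all libraries and *Rplp1* with 3869 CPM. *Rpl41*, which encodes the shortest of the ribosomal proteins, had 3384.5 CPM. The means of *Rps29*, *Rps21* and *Rplp1* lay closer to their neighbour in this order than the SD of either gene within any group. The gap from *Rplp1* to *Rpl41* was wider than the SD of *Rplp1* in 3 of the 4 groups. It was narrower than the SD of *Rpl41* for OVX + v (916 CPM), OVX + E2 (507 CPM) and OVX + RAL (592 CPM), but not for sham + v (475 CPM). Below them came *Rpl37*, *Rps27*, *Rpl13a*, *Rpl37a*, *Rps23* and *Rpl38*, at 2041 to 1744 CPM. The 5 genes with the lowest means were *Rps2* (276 CPM), *Rpl10a* (256 CPM), *Rpl7a* (188 CPM), *Rpl29* (145 CPM) and *Rpl10* (61.3 CPM). In this order they had 53, 3, 53, 44 and 10 other places in the genome, and what part of their reads was counted elsewhere was not tested.

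**Figure D2:**
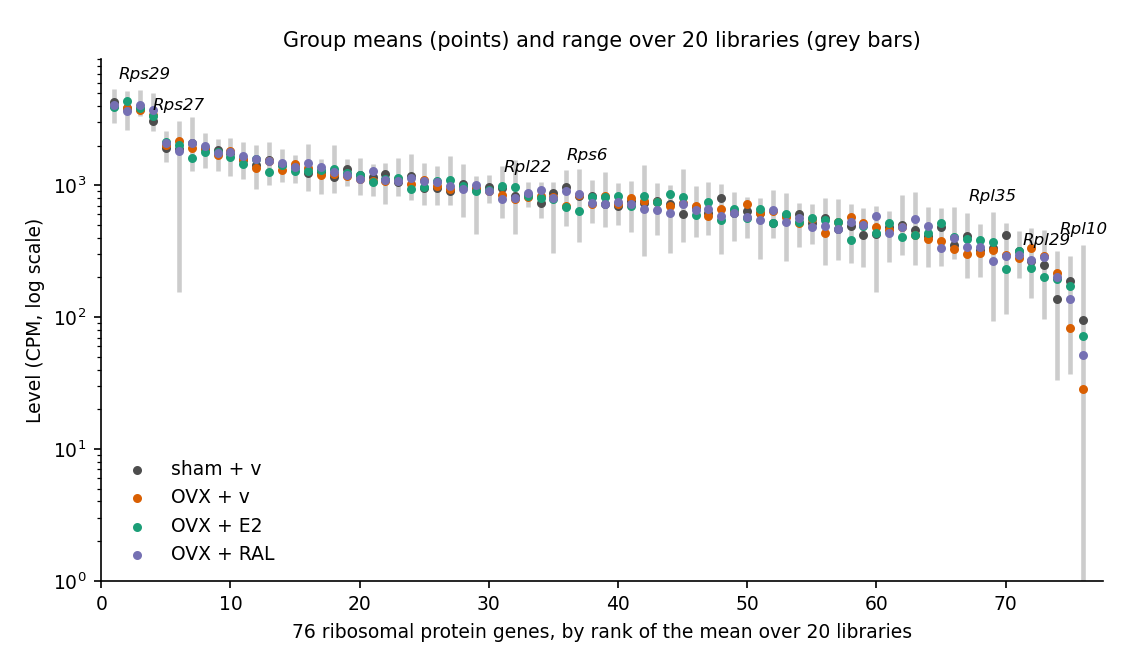
Level of each of the 76 ribosomal protein genes in CPM on a log axis, ordered by the mean over 20 libraries, with the group means as coloured points and the range over the libraries as grey bars. The means run from 4076 CPM for *Rps29* to 61.3 CPM for *Rpl10*, and the bar of *Rpl10* runs to the foot of the axis because 12 libraries had no count.

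The stalk of the large subunit, which binds the factors that drive translation, is built of the products of *Rplp0*, *Rplp1* and *Rplp2*. It took 0.61 ± 0.09% of the counts for sham + v, 0.60 ± 0.05% for OVX + v, 0.62 ± 0.04% for OVX + E2 and 0.64 ± 0.09% for OVX + RAL (SD, n = 5 each). *Rplp0*, the base of the stalk, had 724 CPM over all libraries, *Rplp2* 1569 CPM and *Rplp1* 3869 CPM. *Rplp1* was one of the steadiest of the genes, with a CV within groups of 11.9%. The level of *Rplp0* was 307, 526, 831, 837 and 592 CPM in the OVX + RAL group and 635, 915, 996, 1005 and 751 CPM in the OVX + E2 group. These groups overlapped.

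Several members have known roles beside the making of proteins, or a place of their own in the ribosome. *Rps6*, whose protein is phosphorylated by the S6 kinases downstream of mTOR, had 812 CPM over all libraries. *Rps3*, at the site where the mRNA enters the small subunit, had 725 CPM. *Rpl5* and *Rpl11*, whose free proteins bind Mdm2 and so raise p53 when assembly of the ribosome fails, had 748 and 1021 CPM. *Rpsa*, also known as a laminin receptor, had 303 CPM, and *Rps27a*, which is translated as a fusion with ubiquitin, had 1242 CPM. Of the 4 genes on the X chromosome, *Rpl39* had 980 CPM, *Rpl36a* 943 CPM and *Rps4x* 846 CPM. The fourth, *Rpl10*, is described with its copy.

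The spread of each gene within the groups was set beside that of the counts. The median CV within groups was 22.2%, against 2.78% from the counts, and all 76 genes lay above their counting CV. For the 1721 genes of the table with a mean of at least 100 CPM the median CV was 40.5% and the counting CV 5.80%. The median ratio of both was 7.91 for the ribosomal protein genes and 7.38 for these genes. The lowest values were those of *Rpl22* (11.4%) and *Rplp1* (11.9%), and 7 genes were under 15%. *Rpl10* (188%), *Rpl35* (40.8%), *Rpl7a* (36.2%) and *Rpl21* (36.1%) had the highest, and 13 genes were over 30%. Genes with every stretch elsewhere in the genome had a median CV of 21.8% (37 genes), and the remaining 39 had 22.3%.

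**Figure D3:**
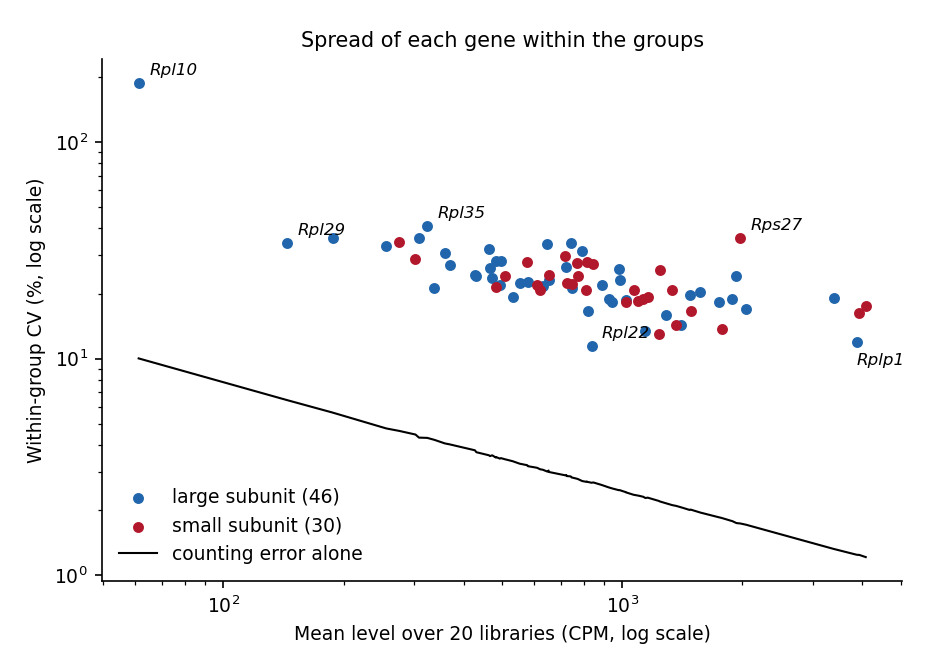
CV of each ribosomal protein gene within the groups (percent, log axis) against its mean level over 20 libraries (CPM, log axis), with the large subunit in blue, the small subunit in red and the CV from counting error alone as a black line. All 76 points lie above the line, at a median of 22.2% against 2.78%, and *Rpl10* stands apart at 188%.

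The highest CV, that of *Rpl10*, was found in a gene that shares its sequence with a copy in the table. *Rpl10* encodes a protein that joins the large subunit at the end of its maturation, and *Rpl10-ps3* is its intronless copy on chromosome 9. In the sham + v group *Rpl10* had 19, 0, 182, 633 and 0 counts and *Rpl10-ps3* 2188, 2768, 1454, 1914 and 1389 counts. In the OVX + v group *Rpl10* had 0, 150, 0, 96 and 0 counts, and the copy 1605, 1438, 1895, 2283 and 1839. Of the counts of these 2 rows, most thus fell on the copy. All 238 stretches of *Rpl10* also lie at chr8:94949966-94950265, where *Nup93* is listed on the same strand, and at chr2:105384546-105384845, where no gene is. What part of the reads of this sequence went there was not tested. In the OVX + E2 group *Rpl10* had 0, 0, 95, 315 and 0 counts, and the copy 2707, 1786, 1260, 1123 and 1691. In the OVX + RAL group *Rpl10* had 499, 0, 0, 0 and 0 counts, and the copy 1341, 2141, 2009, 2479 and 2280. *Rpl10* was at 0 in 12 of 20 libraries, which allows up to 3 counts or 1.44 to 2.27 CPM in these libraries by counting error only, and it held 5.03% of the counts of the pair over all libraries.

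The sum of both rows varied less. It was 1169 ± 253 CPM for sham + v, 1106 ± 123 CPM for OVX + v, 1339 ± 274 CPM for OVX + E2 and 1135 ± 129 CPM for OVX + RAL (SD, n = 5 each). Its CV over the 20 libraries was 17.8%, and that of *Rpl10* alone was 177%. The part of the sum on *Rpl10* was between 0% and 27.1% and was highest in replicate 16 of the OVX + RAL group, replicate 4 of the sham + v group (24.9%) and replicate 14 of the OVX + E2 group (21.9%). How the reads that match both rows were assigned is not given in the sources used here, and its part in these values was not tested.

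*Rps27*, a zinc-binding protein of the small subunit, and its retrogene *Rps27rt* shared counts in another ratio. The part of their sum on *Rps27* was 63.7% to 92.0% in 19 libraries and 9.29% in replicate 18 of the OVX + RAL group, with 266 counts on *Rps27* and 2597 on *Rps27rt*. In the other libraries *Rps27* had 1667 to 6225 counts. The sum in replicate 18 was 1682 CPM, the lowest of 20 libraries, next to 1698 CPM in replicate 1 of the sham + v group. Over all libraries the CV was 33.8% for *Rps27* and 23.9% for the sum. *Rpl9* and *Rpl9-ps6* were another such pair, chosen after their values were seen. In replicate 5 of the sham + v group they had 233 and 331 counts, with 41.3% on *Rpl9*. In the other 19 libraries 84.5% to 100% was on *Rpl9*, with the most counts on *Rpl9-ps6* in replicate 18 of the OVX + RAL group (159) and replicate 10 of the OVX + v group (104).

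**Figure D4:**
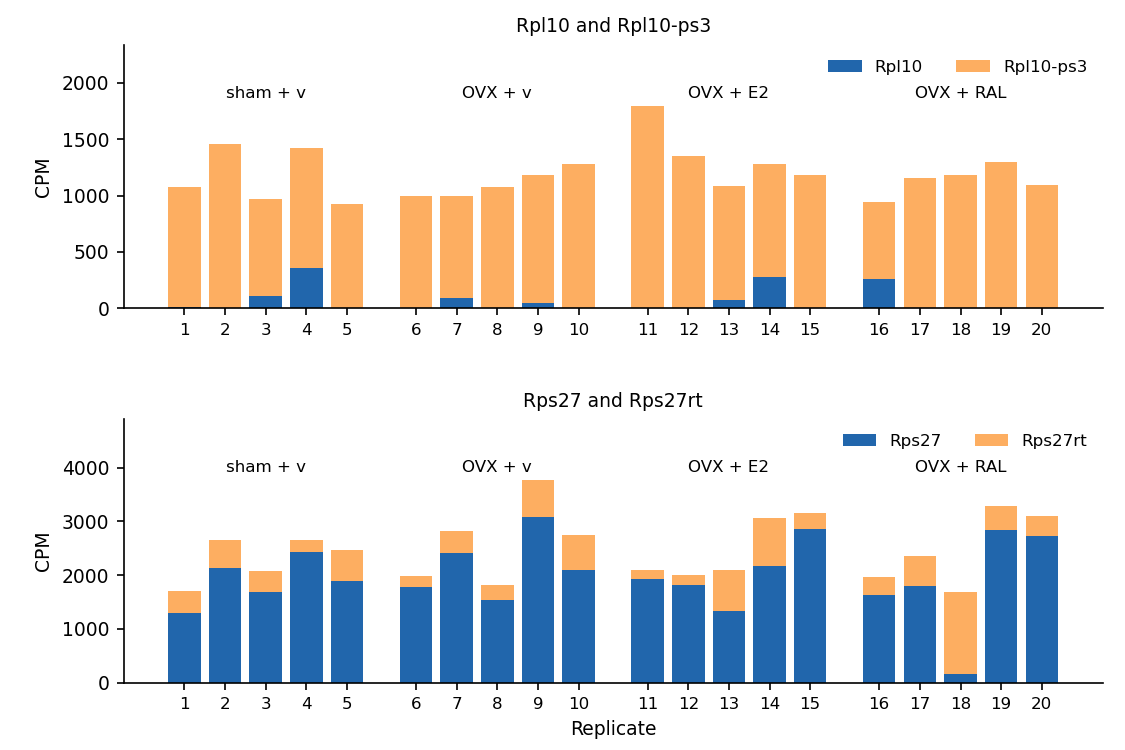
Level of *Rpl10* and *Rpl10-ps3* (top) and of *Rps27* and *Rps27rt* (bottom) in each of the 20 libraries, stacked, in CPM, by group and replicate number. *Rpl10* has no count in 12 libraries while the sum stays between 921 and 1795 CPM, and in replicate 18 of the OVX + RAL group most of the sum of the second pair is *Rps27rt*.

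What ovariectomy does to these genes is asked by setting sham + v libraries against OVX + v libraries. All 76 were among the 13825 genes that reached 10 counts in the 10 libraries together, and 0 of them passed an adjusted p of 0.05 in the quasi-likelihood test of edgeR with Benjamini-Hochberg adjustment, where 0.0145% of all genes passed. With DESeq2 and with limma the count was also 0. At an unadjusted p under 0.05, 3 genes were higher in the sham + v group (5.09% of all genes were) and 0 were lower (7.4% of all genes were). These shares are not matched for level. The median level was 773 CPM over the 76 genes and 18.99 CPM over all genes with at least 10 counts in the 20 libraries. With the default filter of edgeR, which kept 8956 genes, the shares of all genes were 0.849% higher and 0.804% lower. The shares of all genes in the other comparisons are not matched for level either. The median log2 fold change over the 76 genes was 0.03, and -0.02 over all genes tested, with 44 genes above 0 and 32 below (49.0% of all genes were above 0). TMM normalization, which moved the median of all genes by -0.04, gave 37 above 0, 39 below (46.9% of all genes were above 0) and a median of -0.02, and the difference from the median of all genes was 0.06 without it and 0.05 with it. The median was 0.05 over the large subunit and 0.02 over the small subunit, and both were 0.02 in OVX + E2 against OVX + v. It was 0.04 and -0.02 in OVX + RAL against OVX + v, and -0.07 and 0.05 in OVX + E2 against OVX + RAL.

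The 3 genes with an unadjusted p under 0.05 were *Rpl29*, *Rps6* and *Rpl10*. *Rpl29*, a large subunit protein that also binds heparin, had 207, 135, 148, 291 and 154 CPM in the sham + v group and 49.2, 128, 133, 65.4 and 36.9 CPM in the OVX + v group. The groups did not overlap, which held for 0.203% of all genes in this direction and for 1 of the 76. The log2 fold change was 1.18 (SE 0.46, edgeR adjusted p = 0.363), and it stayed between 0.96 and 1.42 when any 1 library was left out. Stretches of the coding end of *Rpl29* lie at 44 other places of the genome, and whether its reads are divided among them was not tested. The 2649 nucleotides after its stop codon were not searched. *Rps6* had 804, 1181, 732, 852 and 1296 CPM in the sham + v group and 572, 914, 683, 658 and 622 CPM in the OVX + v group. These groups overlapped, with a log2 fold change of 0.50 (SE 0.22, edgeR adjusted p = 0.363). *Rpl10* had a log2 fold change of 1.73 (SE 0.78, edgeR adjusted p = 0.363), which rests on the few libraries with reads on its row. It was 0.046 without replicate 4 of sham + v and 2.97 without replicate 7 of OVX + v. Summed with *Rpl10-ps3*, it was 0.08 (SE 0.20). Of the genes below 0, *Rpl7a* had 138 ± 71.1 CPM against 217 ± 63.4 CPM (SD, n = 5 each) and a log2 fold change of -0.66 (SE 0.40). *Rpl21* was at 0.53, *Rpl36* at 0.45, *Rpl32* at -0.29, *Rps19* at -0.27, *Rps27* at -0.21 and *Rpl41* at -0.15, all with an edgeR adjusted p of 0.595 or more. With any 1 library left out, *Rpl41* ran from -0.22 to 0.03, turning without replicate 9 of OVX + v, and *Rps27* from -0.32 to -0.05. *Rps19* is the gene most often mutated in Diamond-Blackfan anemia.

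The comparison of the OVX + E2 group with the OVX + v group asks what estradiol does after ovariectomy, and shares its control libraries with the first. Of the 76 genes 0 passed an adjusted p of 0.05 among 13695 genes (0.0584% of all genes did, edgeR), and DESeq2 and limma also gave 0. At an unadjusted p under 0.05 there were 0 genes higher (4.64% of all genes) and 0 lower (9.3% of all genes). The median log2 fold change was 0.02, against -0.06 over all genes, with 43 genes above 0 and 33 below (47.5% of all genes were above 0). With TMM normalization, which moved the median of all genes by -0.11, it was -0.09 with 26 genes above 0 and 50 below, and 4 genes were lower at an unadjusted p under 0.05, where 43.5% of all genes were above 0 and 10.01% were lower at that p in the same fit. The difference from the median of all genes was 0.08 in both.

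*Rpl29* had 155, 164, 248, 151 and 139 CPM for OVX + E2, again above every OVX + v library, which held for 0.161% of all genes in this direction. Its log2 fold change was 1.05 (SE 0.58, edgeR adjusted p = 0.455). In the OVX + RAL group it had 99.8, 134, 99.9, 164 and 193 CPM, and 3 of these 5 libraries lay above every OVX + v library (log2 fold change 0.74, SE 0.46, edgeR adjusted p = 0.712). The same 5 OVX + v libraries entered all these values. *Rpl14*, a large subunit protein, had 383 ± 117 CPM in the OVX + E2 group and 571 ± 99.6 CPM in the OVX + v group (SD, n = 5 each), with a log2 fold change of -0.58 (SE 0.30, edgeR adjusted p = 0.379). *Rps21* (0.17), *Rpl3* (0.46), *Rpl35a* (0.37) and *Rplp0* (0.30) were the next above 0 by p, and *Rpl27a* (-0.29), *Rpl13a* (-0.25) and *Rps7* (-0.35) were among the next below, all as log2 fold changes. *Rpl10* was at 1.33 (SE 1.10) and at 0.28 (SE 0.19) when summed with its copy.

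The comparison of the OVX + RAL group with the OVX + v group asks the same of raloxifene, a selective estrogen receptor modulator. Again 0 of the 76 genes passed an adjusted p of 0.05 among 14002 genes (0.0286% of all genes did, edgeR), and DESeq2 and limma gave 0. At an unadjusted p under 0.05 there were 0 genes higher (5.98% of all genes) and 0 lower (6.13% of all genes). The median log2 fold change was 0.02, against -0.03 over all genes, with 41 genes above 0 and 35 below (48.3% of all genes were above 0). TMM normalization, which moved the median of all genes by 0.03, gave 48 above 0, 28 below (50.1% of all genes were above 0) and a median of 0.06, and the difference from the median of all genes was 0.06 in both. For 0 of the 76 genes did every OVX + RAL library lie above every OVX + v library, against 0.264% of all genes. *Rps6* had 898, 758, 1110, 812 and 907 CPM and a log2 fold change of 0.38 (SE 0.23, edgeR adjusted p = 0.693), and its values overlapped with those of the OVX + v group. *Rps7*, whose free protein also binds Mdm2, had 573 ± 165 CPM against 716 ± 72.4 CPM (SD, n = 5 each), a log2 fold change of -0.32 (SE 0.25). The others by p were *Rpl24* (0.39), *Rpl26* (0.26) and *Rps14* (0.24) above 0, and *Rps27* (-0.25), *Rps2* (-0.31), *Rpl35* (-0.29) and *Rps3* (-0.21) below. When 1 library was left out, these values ran from 0.14 to 0.57 for *Rpl24*, from 0.13 to 0.32 for *Rps14*, from -0.48 to -0.14 for *Rps2*, from -0.45 to -0.07 for *Rpl35*, from -0.28 to -0.09 for *Rps3* and from -0.46 to 0.05 for *Rps27*. Summed with *Rps27rt*, *Rps27* was at -0.09 (SE 0.17).

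The direct comparison of the OVX + E2 and OVX + RAL groups, 1 dose of each, gave 0 of 76 genes at an adjusted p of 0.05 among 13753 genes (0.0727% of all genes passed, edgeR), and 0 with DESeq2 and limma. At an unadjusted p under 0.05, 0 genes were higher in the OVX + E2 group (5.02% of all genes) and 1 was lower (9.1% of all genes). This was *Rpl13a*, whose free protein holds back the translation of certain inflammatory mRNAs. It had 1667, 1349, 1380, 1728 and 1975 CPM for OVX + E2 and 3296, 1754, 1748, 1982 and 1723 CPM for OVX + RAL. The groups overlapped and replicate 16 was far above the others. The log2 fold change was -0.37 (SE 0.18, edgeR adjusted p = 0.353), and without replicate 16 it was -0.15. *Rpl3*, near the site where peptide bonds are formed, had 507, 668, 276, 662 and 479 CPM in the OVX + E2 group and 244, 341, 327, 443 and 321 CPM for OVX + RAL, so that 4 OVX + E2 libraries lay above every OVX + RAL library (log2 fold change 0.63, SE 0.34, edgeR adjusted p = 0.404). *Rps21* (0.24), *Rplp0* (0.48), *Rpl35* (0.49) and *Rpl23a* (0.32) followed above 0, and *Rps6* (-0.38), *Rpl14* (-0.47) and *Rpl9* (-0.43) were among those below.

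The median log2 fold change between the OVX + E2 and OVX + RAL groups was -0.00129, against -0.01 over all genes, with 38 genes above 0 and 38 below (49.5% of all genes were above 0). For 0 of the 76 genes did every OVX + E2 library lie above every OVX + RAL library, against 0.24% of all genes. TMM normalization moved the median of all genes by -0.14, and then gave -0.15 with 22 genes above 0 and 54 below and 6 genes lower at an unadjusted p under 0.05, where 43.4% of all genes were above 0 and 10.3% were lower at that p in the same fit. The markers of Schwann cells summed to 1911 to 3535 CPM in the OVX + E2 group and 1411 to 1816 CPM for OVX + RAL, without overlap, and their part in these values was not tested. Without replicate 16 of the OVX + RAL group, *Rpl10* passed with an adjusted p of 0.00501 (edgeR), since the other 4 OVX + RAL libraries had no count on its row. Summed with *Rpl10-ps3*, the log2 fold change was 0.24 (SE 0.22, edgeR adjusted p = 0.940) with all libraries. *Rps27* was at 0.14, and at 0.00379 (SE 0.16) when summed with *Rps27rt*.

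**Figure D5:**
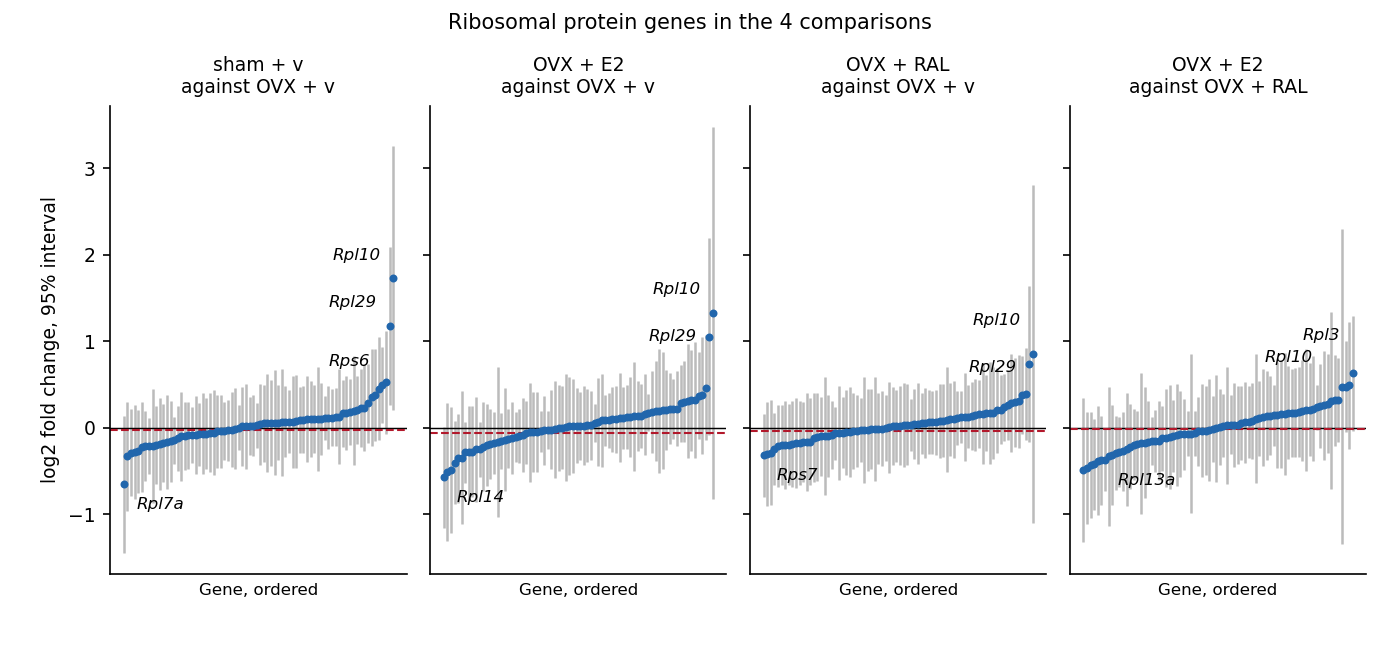
log2 fold change of each of the 76 ribosomal protein genes in the 4 comparisons (points, ordered by size) with its 95% interval (grey bars). The red dashed line is the median of all genes tested, and the black line 0. Most points lie within 0.5 of 0, while *Rpl10* and *Rpl29* lie highest, with wide intervals, in the 3 comparisons with OVX + v.

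The intervals give the range of change around each fitted value. The 95% interval of the log2 fold change lay between -1 and 1, less than 2-fold either way, for 71 of the 76 genes with sham + v, 67 with OVX + E2 and 74 with OVX + RAL, each against the OVX + v group, and for 66 between the OVX + E2 and OVX + RAL groups. The share of all genes with an interval within these bounds is not given here. The median standard error of the 76 genes was 0.23 to 0.26, and that over all genes tested 1.42 to 1.79. The median level was 773 CPM over the 76 genes and 18.99 CPM over all genes with at least 10 counts in the 20 libraries. Whether the 76 genes differ from genes of a like level in these errors, or in the fold changes that follow, was not tested. Fold changes under 0.5 on the log2 scale in either direction were found for 72 of 76 genes with sham + v (40.3% of all genes tested), 72 with OVX + E2 (35.6%) and 74 with OVX + RAL (41.9%), each against the OVX + v group.

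The genes around the ribosome were looked at in the same fits. An unadjusted p under 0.05 is named for them below beside a background of 5.09% of all genes higher and 7.4% lower with sham + v, 4.64% and 9.3% with OVX + E2, 5.98% and 6.13% with OVX + RAL, each against OVX + v, and 5.02% and 9.1% between OVX + E2 and OVX + RAL. Of the related genes outside the rule, *Rps3a1*, a small subunit protein, had 920 CPM over all libraries, *Fau*, the fusion that gives Rps30, 554 CPM, and *Rack1*, a scaffold on the small subunit, 366 CPM. The paralogs *Rpl36al*, *Rpl22l1* and *Rps27l* had 450, 163 and 144 CPM. *Rpl3l*, the form of striated muscle, had 17 counts in 1 library and 0 in the others. Of 10 or 11 such genes tested, 0 passed an adjusted p of 0.05 in any of the 4 comparisons (edgeR). An unadjusted p under 0.05 was found for *Rps27l* between sham + v and OVX + v, with 96.5 ± 36.1 CPM against 195 ± 58.5 CPM (SD, n = 5 each), a log2 fold change of -1.02 (SE 0.44, edgeR adjusted p = 0.363). *Rpl3l* was the other one, between the OVX + RAL group and both groups it was compared with.

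Other mRNAs that begin with a TOP tract, those of elongation factors and poly(A)-binding protein among them (18 tested), had median log2 fold changes of 0.08 for sham + v, -0.08 in the OVX + E2 group and -0.06 for OVX + RAL, each against the OVX + v group, and 0 passed in any comparison at an adjusted p of 0.05 (edgeR). *Vim*, an intermediate filament protein, was the 1 gene with an unadjusted p under 0.05, between OVX + E2 and OVX + RAL, with 47.2 ± 35.1 CPM against 139 ± 46.4 CPM (SD, n = 5 each). The genes of ribosome biogenesis (27 tested) had medians of 0.27, 0.14 and 0.30, and 0 passed. These medians are the values of *Ncl* (SE 0.26), *Nop10* (SE 0.51) and *Nip7* (SE 1.74). *Gar1*, of the particles that modify ribosomal RNA, had an unadjusted p under 0.05 between sham + v and OVX + v, with 50.6 ± 53.9 CPM against 4.74 ± 5.49 CPM (SD, n = 5 each). *Polr1d*, a subunit of RNA polymerases I and III, had one between OVX + E2 and OVX + v, with 200 ± 74.0 CPM against 96.7 ± 33.6 CPM. *Nop58*, a core protein of small nucleolar particles, had one between OVX + E2 and OVX + RAL, with 52.7 ± 43.9 CPM against 140 ± 76.4 CPM. The genes that control the synthesis of ribosomal proteins (15 tested) had medians of 0.28, 0.13 and 0.71, and 0 of them reached an unadjusted p under 0.05 in any comparison. The 0.28 is the value of *Eef2k*, at 7.17 CPM for sham + v against 5.87 CPM (SE 2.62). The 0.71 is that of *Rptor*, at 10.02 CPM for OVX + RAL against 6.11 CPM (SE 2.31). With standard errors of this size at such low levels, no shift of the list is read from these medians. The mitochondrial ribosomal proteins (78 tested), which serve the separate ribosome of the mitochondrion, took 0.34 ± 0.04% of a library (SD, n = 20), and their medians were 0.12, -0.01 and 0.20, with 0 genes past the adjusted threshold. At an unadjusted p under 0.05, *Mrpl21* was on the higher side with sham + v and *Mrpl24* with OVX + RAL, *Mrpl44* and *Mrps11* were on the lower side with OVX + E2, each against OVX + v, and *Mrps11* and *Mrpl40* were on the lower side in OVX + E2 against OVX + RAL. The 7 pseudogene rows had 4 or 5 genes tested, medians of -0.45, -0.61 and 0.43 and 0 genes past the adjusted threshold, and *Rplp2-ps1* was on the lower side at an unadjusted p under 0.05 with sham + v and with OVX + E2. The medians over all genes were -0.02, -0.06 and -0.03 in these comparisons. Between OVX + E2 and OVX + RAL the median was 0.11 for the related genes, -0.05 for the other TOP mRNAs, -0.07 for biogenesis, -0.21 for control, -0.11 for the mitochondrial ribosomal proteins and -0.95 for the pseudogene rows, against -0.01 over all genes.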

How the data were processed

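Reads of 75 cycles were cleaned by the authors, who cut off the first 12 nucleotides and left out reads under 20, and were mapped to GRCm39.105 with CLC Genomics Workbench at its default settings. The version, and what these defaults do with reads that match several places, are not given in the sources used here. The deposited total counts are raw counts of reads per gene, and 0 columns belong to samples outside the series. The authors' normalized columns, fold changes and p-values were not used.

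Genes, lists and tests were chosen with earlier results of these data known. CPM were taken from the column totals. Each comparison was fitted with edgeR 4.0.16 (glmQLFit and glmQLFTest, R 4.3.3) on its 10 libraries, with total counts as library sizes, without TMM, on genes that reached 10 counts in these libraries together, with Benjamini-Hochberg adjustment and a threshold of 0.05. Standard errors are the log2 fold change over the square root of F. CV within groups is the square root of the mean group variance over the mean. Genes named were the 10 highest and 5 lowest, the stalk, X-linked and other genes with known roles, the 5 smallest p in each direction of each comparison, and the 3 largest and smallest CV. Some genes that this rule names are not reported here. DESeq2 1.42.0 and limma 3.58.1 (log2(CPM + 1)) were alternatives. GENCODE vM39 gave coding sequences. Python 3.11.15 was used with numpy 2.4.6, pandas 2.3.3 and matplotlib 3.10.9. The pipeline was tested on simulated data. Of 40 pairs of replicates, 0 had identical counts.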

Additional observations from a re-analysis of the deposited data

Results flagged for a closer look

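In each group of 5 libraries, 38 quantities (the share of the ribosomal protein genes, the genes named and the 3 sums with a copy) were searched for a library far from the other 4, in 152 groups of values. This marked 11 values, and about 1 in 20 groups, 7.6 here, would be marked by chance. Of these, 3 lay in replicate 16 of the OVX + RAL group, with 257 CPM of *Rpl10* where the others had 0, 3296 CPM of *Rpl13a* where the others had 1723 to 1982 CPM, and 893 CPM of *Rpl24* where they had 390 to 525 CPM. *Rpl10* was also high in replicate 14 of the OVX + E2 group, at 280.5 CPM against at most 76.1 CPM. *Rplp1* stood at 5305 CPM in replicate 18 of the OVX + RAL group, against 3647 to 3907 CPM. In replicate 20 of that group *Rps14* had 2016 CPM against 1431 to 1587 CPM, and *Rps2* 353 CPM against 231 to 256 CPM. *Rps2* was also high in replicate 5 of the sham + v group, at 428 CPM against 200 to 247 CPM. *Rpl29* had 248 CPM in replicate 13 of the OVX + E2 group, against 139 to 164 CPM. In the OVX + v group *Rpl41* had 5002 CPM in replicate 9, against 2753 to 3290 CPM, and *Rps19* 429 CPM in replicate 6, against 768 to 858 CPM. No cause of these values was tested.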

How the results depend on the processing

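The count of ribosomal protein genes past an adjusted p of 0.05 was 0 with TMM normalization, DESeq2, limma, another filter or none, the robust fit, all 4 groups in 1 fit, and Rpl10 and Rps27 summed with their copies (this last chosen after seeing the data). Leaving out 1 library also gave 0, except 1 (*Rpl10*) between OVX + E2 and OVX + RAL without OVX + RAL replicate 16, a range of 0 to 1, where the fitted log2 fold change of 9.81 against libraries without a count is no bound. Counts at an unadjusted p under 0.05 moved as follows, with the share of all genes of the same fit in parentheses. A range in parentheses is that over all fits without 1 library. Its ends need not belong to the fits with the fewest or the most genes. For sham + v against OVX + v, limma gave 1 lower (2.86%). Leaving out 1 library gave from 1 higher without sham + v replicate 4 (4.46%) to 6 higher without OVX + v replicate 9 (1.75%), where all such fits ran from 1.71% to 4.54%. It gave 0 to 1 lower (2.38% to 6.43%). For OVX + E2 against OVX + v, the higher genes were 1 with DESeq2 (1.94%), the default filter (0.838%) or all 4 groups (3.95%), and 2 with limma (0.832%), and the lower ones were 4 with TMM (10.01%), 1 with DESeq2 (4.11%), the default filter (0.946%) or the robust fit (8.97%), and 2 with limma (4.63%). Without 1 library both were 0 to 2 (1.87% to 4.35% higher, 3.04% to 7.96% lower). For OVX + RAL against OVX + v, DESeq2 gave 1 higher (2.93%) and limma 1 lower (2.49%). Without 1 library 0 to 2 were lower (2.3% to 5.39%), with 2 when OVX + RAL replicate 16 was left out (2.56%). Between OVX + E2 and OVX + RAL, the higher genes were 1 with DESeq2 (2.1%), the default filter (0.973%) or the robust fit (5.14%), 2 with all 4 groups (4.51%) and 3 with limma (0.945%), and the lower ones were 6 with TMM (10.3%) and 0 with DESeq2 (4.39%) or the default filter (0.819%). Without 1 library there were 0 to 2 higher (2.17% to 4.65%) and 0 to 1 lower (2.95% to 7.51%). The median log2 fold change of that comparison was -0.15 with TMM. Without the 10 largest genes the share was 8.95% in sham + v libraries, 8.86% after OVX + v, 8.83% after OVX + E2 and 9.14% after OVX + RAL. When 1 library was left out, the median over the 76 genes also turned direction, with a range of -0.02 to 0.10 for sham + v, -0.05 to 0.11 for OVX + E2 and -0.02 to 0.10 for OVX + RAL, each against OVX + v, and -0.07 to 0.02 between OVX + E2 and OVX + RAL. Some named genes turned direction as well. *Rpl41* in sham + v ranged from -0.22 to 0.030, the latter without OVX + v replicate 9. *Rps27* ranged from -0.26 to 0.052 in OVX + E2, from -0.46 to 0.047 in OVX + RAL (without OVX + RAL replicate 18) and from -0.15 to 0.36 between both. *Rpl10* ranged from -0.57 to 2.57, from -8.66 to 2.09 and from -1.43 to 9.81 in these comparisons, where the -8.66, like the 9.81, comes from OVX + RAL libraries all at 0 and is no bound, and was -0.83 in OVX + RAL with limma. In all, 29 of the 45 values of named genes moved by over 1.5 times when 1 library was left out (7 of 10 for sham + v, 7 of 12 for OVX + E2, 7 of 11 for OVX + RAL and 8 of 12 between OVX + E2 and OVX + RAL). Beside the genes given above, they included *Rpl36*, *Rpl7a*, *Rps19*, *Rps27* and *Rpl32* for sham + v, *Rps21*, *Rpl27a*, *Rpl13a* and *Rpl35a* for OVX + E2, *Rps14*, *Rpl35*, *Rpl24*, *Rps2* and *Rps3* for OVX + RAL, and *Rpl23a*, *Rpl9*, *Rplp0*, *Rpl13a* and *Rpl35* between the last 2 groups. The causes were not tested. No paired analysis was made because the labels give no pairing of libraries between the groups. At this depth, intervals rest on 5 libraries a group, and CPM near the floor of 3 counts, as for *Rpl10*, were not resolved.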
